A study of Homo sapiens with 18 samples.

Results

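CHIR99021 and BMP4 were given to human foregut endoderm that had first received retinoic acid (RA), and 72 h later NKX2-1, SHH and most Wnt targets were higher than after RA alone, while cardiac, smooth muscle, liver and most BMP target genes were lower. The cells were H1, an established human embryonic stem cell line, differentiated to foregut endoderm. The group labelled RA plus CHIR BMP (RA+CB below) received RA at 2 µM for 24 h between day 5 and day 6, then, between day 6 and day 9, 72 h of both CHIR99021 (2 µM) and BMP4 (50 ng/mL). The group labelled RA (RA only below) received the same RA pulse and no CHIR99021 or BMP4. Both were taken at day 9, with 3 bulk RNA-seq libraries each, and these 6 of the 18 libraries of the series were chosen by their labels alone. Other groups of 3 libraries were used for reference levels or the difference of responses: RA at day 6, CHIR99021 and BMP4 without RA at day 9, and untreated cells at day 9.

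CHIR99021 inhibits the kinase GSK3, which otherwise marks beta-catenin for destruction, so it switches on Wnt target genes without a Wnt ligand. BMP4 binds receptors that phosphorylate SMAD1, SMAD5 and SMAD9, and these activate genes such as those of the ID family. In the embryo, Wnt and BMP signals from the mesoderm around the ventral foregut specify the respiratory domain, which is marked by the transcription factor NKX2-1, while SOX2 is high in the dorsal foregut that gives the oesophagus.

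Levels are given as counts per 1000000 (CPM) of the scaled library total, with the standard deviation over 3 libraries after ± unless an SE is named. Totals ran from 6746254 to 19687621 counts in the RA+CB libraries and from 6725817 to 10754408 counts in the RA-only libraries. Differences were tested with edgeR's quasi-likelihood test, and a gene was called where the Benjamini-Hochberg adjusted p was below 0.05. An SE given below was worked back from that test's statistic and the fitted change. It can be too small where a group has few counts. Whether each library came from its own culture is not in the labels. A p-value here measures no more than the spread among libraries, which may be technical. That spread was estimated per gene over all 18 libraries of the series, not from the 6 compared alone. RA-only replicates differed from each other more than RA+CB replicates did, with 2.21 to 2.79 in RA+CB pairs and 6.28 to 10.8 in RA-only pairs for the chi-square divided by the number of genes. Mitochondrially encoded genes took 6.24% to 6.88% of counts in RA+CB libraries and 4.49% to 5.01% in RA-only libraries. In bulk samples, fewer cells of a type and less RNA per cell cannot be told apart.

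Of 15531 genes tested, 10004 were called (64.4%), with 4987 higher in RA+CB cells (32.1%) and 5017 lower (32.3%). At least 2-fold changes numbered 1589 higher (10.2%) and 2100 lower (13.5%). Libraries of both groups did not overlap for 5441 genes that were higher in every RA+CB library (35%) and 5326 that were lower in every one (34.3%). The median log2 fold change of all tested genes was 0.02. Because nearly 2 in 3 genes were called, counts of called genes in a list are read against these shares, and fold changes carry more of the account below. Of 422 genes in 29 lists of pathways and cell types, 354 were tested, of which 94 rose and 170 fell (median log2 fold change -0.38). Unless a response without RA is named, rises and falls are of RA+CB against RA only at day 9, not changes over time.

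**Figure D1:**
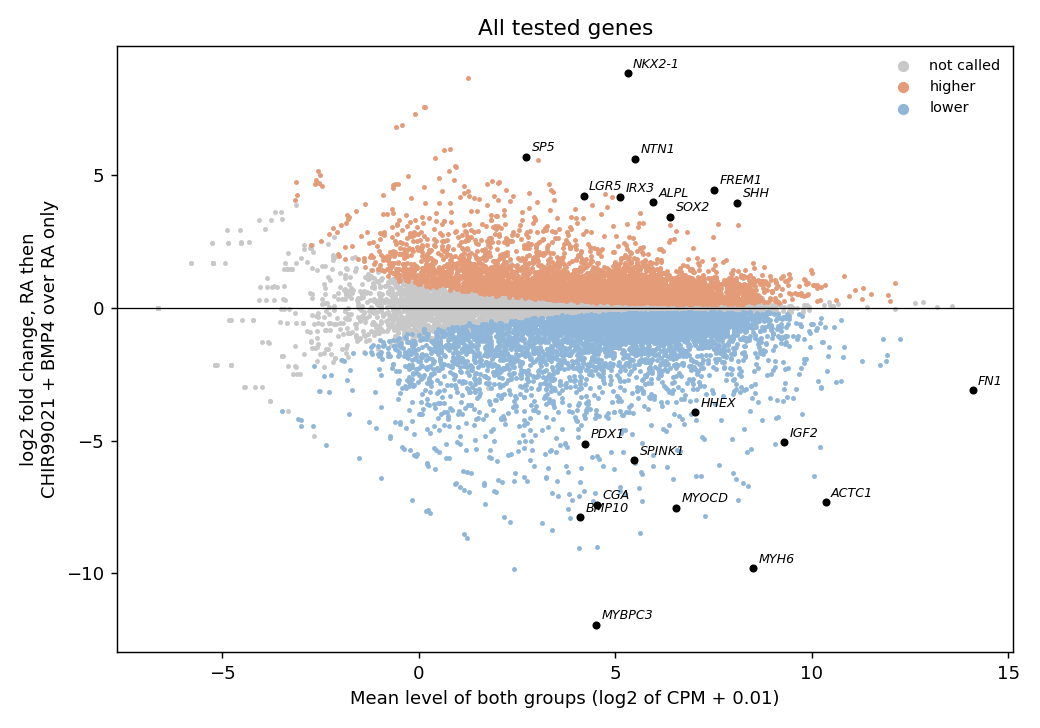
All 15531 tested genes, with the mean level of both groups (log2 of CPM plus 0.01) on the x axis and the log2 fold change of RA+CB over RA only on the y axis. Orange points are called higher (4987) and blue points called lower (5017), and NKX2-1 stands at the top (8.84) and MYH6 near the bottom (-9.80).

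NKX2-1, the transcription factor that marks the respiratory and thyroid domains of the foregut, had the largest fitted rise in a ranking of called genes. The ranking took genes of at least 5 CPM in the higher group whose libraries did not overlap. Clones, antisense RNAs, pseudogenes and LOC or LINC entries were passed over. NKX2-1 stood at 81.3, 86.7 and 69.7 CPM in the RA+CB libraries, against 0.321, 0.209 and 0 CPM in the RA-only libraries. The groups did not overlap, and the RA-only libraries held 4 NKX2-1 counts between them. The log2 fold change was 8.84, or 459-fold (edgeR adjusted p = 1.66e-17), and 8.23 without RA-only replicate 3, the library at 0. With so few RA-only counts the size of this fold is uncertain. NKX2-1 averaged 10.7 ± 2.58 CPM with CHIR99021 and BMP4 without RA, 1.15 ± 0.345 CPM in untreated day 9 cells and 0.111 ± 0.0299 CPM at day 6 after RA. SFTA3, a transcript whose locus overlaps NKX2-1, stood at 4.35, 5.22 and 4.69 CPM in RA+CB libraries and had no counts in RA-only libraries. That is at least 38.4-fold higher with 3 counts over the RA-only group as the floor, a bound that covers counting error only. No source used here says whether reads were assigned by strand, and reads of NKX2-1, SFTA3 and the antisense NKX2-1-AS1 could be shared.

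Promoter sequences are shown for NKX2-1, on which the comparison turns, and for SP5, a transcription factor gene that is a direct Wnt target and had the largest rise of the Wnt list. Each run holds the 250 bases before a RefSeq start site (GRCh38.p14), 5' to 3' on the gene's strand. Capitals mark matches, on either strand, to CTTTGA or CTTTGT, the core recognised by the TCF/LEF factors that carry the Wnt signal, and to GGCGCC, a GC-rich site bound by BMP-activated SMADs. NKX2-1 lies at chr14:36516397-36520232 on the minus strand, and SP5 at chr2:170715337-170718078 on the plus strand.
SP5, chr2:170715087-170715336: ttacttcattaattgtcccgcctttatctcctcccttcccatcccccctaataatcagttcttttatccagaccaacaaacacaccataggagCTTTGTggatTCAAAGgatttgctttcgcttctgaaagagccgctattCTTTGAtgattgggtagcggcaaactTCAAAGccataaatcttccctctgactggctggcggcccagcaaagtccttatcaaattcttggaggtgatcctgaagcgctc
NKX2-1 first start, chr14:36520233-36520482: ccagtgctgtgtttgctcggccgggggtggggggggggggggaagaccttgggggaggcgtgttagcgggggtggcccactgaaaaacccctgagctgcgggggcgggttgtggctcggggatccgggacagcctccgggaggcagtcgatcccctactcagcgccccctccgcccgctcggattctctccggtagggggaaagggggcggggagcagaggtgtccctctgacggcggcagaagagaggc
NKX2-1 second start, chr14:36519557-36519806: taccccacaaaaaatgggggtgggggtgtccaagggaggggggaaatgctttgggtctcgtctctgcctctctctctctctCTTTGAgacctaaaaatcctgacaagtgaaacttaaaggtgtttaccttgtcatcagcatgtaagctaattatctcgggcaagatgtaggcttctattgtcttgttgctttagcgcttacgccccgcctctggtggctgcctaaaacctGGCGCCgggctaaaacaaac

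The SP5 window held 4 matches: CTTTGT 157 bases and CTTTGA 109 bases before the start on the gene's strand, and CTTTGA as TCAAAG on the opposite strand 147 and 83 bases before it. The window before the second NKX2-1 start held CTTTGA 169 bases and GGCGCC 20 bases before the start, and the window before the first start held no match. Nor did the window before the start of ID1, the BMP target described below, at chr20:31605039-31605288. Of 35116 RefSeq promoter windows of the same length, 11.21% held CTTTGA, 13.72% CTTTGT and 16.38% GGCGCC, a palindrome, on either strand. A match is a description of the letters and not a binding site.

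Most Wnt targets were higher after CHIR99021 and BMP4. Of 20 listed genes that Wnt signalling is known to switch on, 17 were tested, 10 rose, 3 fell and 4 were not called, with a median log2 fold change of 1.37 against 0.02 for all genes. SP5 stood at 14.2, 13.1 and 12 CPM in RA+CB libraries, against 0.16, 0.418 and 0.111 CPM in RA-only libraries, a 52.1-fold rise (log2 5.70 ± 0.66 SE, edgeR adjusted p = 1.07e-06). Its log2 fold change was 6.53 without RA-only replicate 2, and the lncRNA ERICH2-DT, which overlaps SP5, was at 1.28 CPM in RA+CB and 0.337 CPM in RA-only cells. LGR5, a receptor for R-spondins that strengthens Wnt signalling, stood at 36.4, 32.4 and 35 CPM in RA+CB libraries against 2.73, 2.09 and 0.889 CPM in RA-only libraries, 18.9-fold higher (edgeR adjusted p = 1.02e-08).

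Genes that feed back on the pathway moved with these. AXIN2, a scaffold of the complex that destroys beta-catenin, stood at 57.7, 59.8 and 51.7 CPM in RA+CB libraries and at 11.1, 11.9 and 10.8 CPM in RA-only libraries (5.01-fold, edgeR adjusted p = 2.03e-14). NKD1, an inhibitor of Dishevelled, averaged 75.3 ± 5.99 CPM in RA+CB cells and 12.2 ± 2.13 CPM in RA-only cells. ZNRF3 and RNF43, ubiquitin ligases that remove Wnt receptors, rose 4.66-fold and 2.81-fold. LEF1, a nuclear partner of beta-catenin, rose 4.77-fold (13.1 ± 1.36 CPM in RA+CB, 2.74 ± 0.27 CPM in RA only). WIF1, a secreted Wnt inhibitor, had 84 counts over the RA+CB libraries against 2 over the RA-only libraries, a ratio of 27.3 (95% counting interval 7.33 to 229).

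Other members of the Wnt list did not follow. APCDD1, a membrane inhibitor of Wnt, fell 3.68-fold (8.9 ± 0.794 CPM in RA+CB, 33.7 ± 6.45 CPM in RA only). MYC fell 4.02-fold and CCND1, cyclin D1, 1.8-fold. DKK1, a secreted Wnt inhibitor, stood at 34.9 ± 5.48 CPM in RA+CB and 36 ± 10.6 CPM in RA-only cells (edgeR adjusted p = 0.897), and NOTUM, which inactivates Wnt ligands, at 1.97 ± 0.0398 and 2.46 ± 0.51 CPM (edgeR adjusted p = 0.407).

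BMP targets were mostly lower in RA+CB than in RA-only cells, although BMP4 had been added. All 20 listed genes were tested, 2 rose, 16 fell and 2 were not called, with a median log2 fold change of -1.71. ID1, an inhibitor of basic helix-loop-helix factors, stood at 94.8, 112 and 90.4 CPM in RA+CB libraries, against 398, 329 and 331 CPM in RA-only libraries, a 3.55-fold fall (edgeR adjusted p = 1.71e-06). ID3 stood at 95.5, 97.3 and 96.8 CPM in RA+CB libraries against 460, 434 and 506 CPM in RA-only libraries (4.84-fold lower, edgeR adjusted p = 2.1e-10). In each of these genes every RA+CB library lay below every RA-only library. At day 6 after RA, before CHIR99021 and BMP4 were given, ID1 and ID3 averaged 28.8 and 54.3 CPM, below both day 9 groups. ID2 fell 1.89-fold and ID4 1.43-fold.

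The BMP feedback inhibitors SMAD6 and SMAD7 averaged 27.4 ± 1.57 and 40 ± 1.91 CPM in RA+CB cells, against 226 ± 29.5 and 169 ± 1.47 CPM in RA-only cells, falls of 8.3-fold and 4.22-fold. At day 6 after RA, SMAD6 averaged 35.3 CPM and SMAD7 16.9 CPM. BAMBI, a decoy receptor, fell 6.62-fold (59 ± 6.28 CPM in RA+CB, 391 ± 86.8 CPM in RA only). TBX3 and GATA2, transcription factors that BMP induces in several tissues, fell 6.97-fold and 12.6-fold. MSX1, a classical BMP target, stood at 1.82, 2.51 and 1.65 CPM in RA+CB libraries and at 3.21, 2.09 and 1.89 CPM in RA-only libraries (edgeR adjusted p = 0.555). MSX2 stood at 9.66 ± 1.72 CPM in RA+CB and 9.59 ± 5.18 CPM in RA-only cells (edgeR adjusted p = 0.909). The 2 that rose were the antagonist GREM1, 2.27-fold, and ATOH8, 1.66-fold. The cells' own BMP4 transcript stood at 37.6 ± 4.87 CPM in RA+CB and 43.8 ± 9.48 CPM in RA-only cells (edgeR adjusted p = 0.268), and was called lower without RA-only replicate 3 (log2 -0.34). Cardiac and mesenchymal genes, given below, fell together with the BMP targets, and their part in the falls of the BMP list was not tested.

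**Figure D2:**
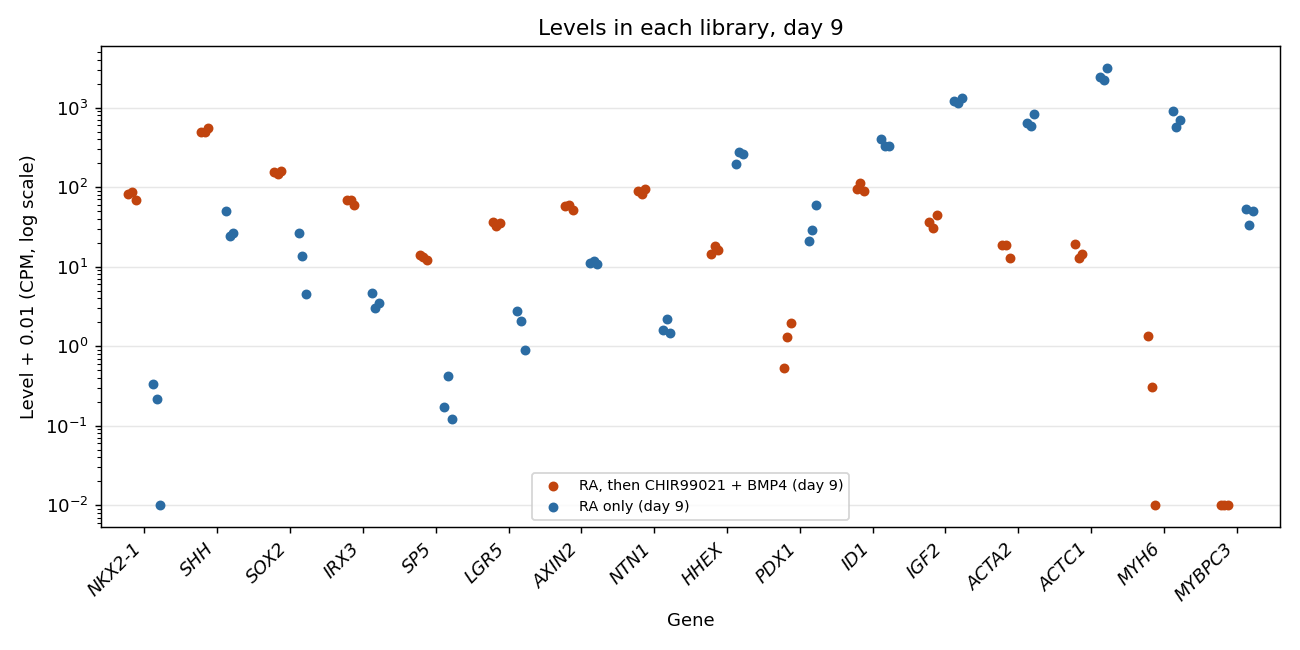
Levels of 16 genes in each library (CPM plus 0.01, log axis), with RA+CB in orange left of RA only in blue. NKX2-1, SHH, SOX2, IRX3, SP5, LGR5, AXIN2 and NTN1 were higher in all 3 RA+CB libraries, and HHEX, PDX1, ID1, IGF2, ACTA2, ACTC1, MYH6 and MYBPC3 were lower in all 3.

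Genes of the early respiratory epithelium moved in both directions. Of 20 listed genes, 18 were tested, 9 rose, 7 fell and 2 were not called (median log2 0.40), and 8 of the 9 rises and 3 of the 7 falls were at least 2-fold. IRX3, an Iroquois homeobox gene, stood at 69, 69.4 and 59.3 CPM in RA+CB libraries against 4.65, 3.03 and 3.44 CPM in RA-only libraries, an 18.3-fold rise (edgeR adjusted p = 4.05e-13). IRX1, IRX2 and IRX5 rose 16.6-fold, 18.3-fold and 9.13-fold. CPM, which encodes carboxypeptidase M, a surface protein used to sort NKX2-1-positive lung progenitors, averaged 93.6 ± 17.3 CPM in RA+CB and 10 ± 2.76 CPM in RA-only cells, 9.19-fold higher (edgeR adjusted p = 5.34e-08). GRHL2, a regulator of epithelial junctions, rose 1.48-fold.

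The falls included genes of the later budding tip. SOX9, which marks distal tip progenitors, fell 2.5-fold (10.7 ± 1.13 CPM in RA+CB, 26.6 ± 8.78 CPM in RA only). ETV5 and ETV4, factors induced by FGF signalling in the tip, fell 5.55-fold and 2.59-fold. FOXP2 and FOXP4, forkhead factors of the lung epithelium, fell 1.6-fold and 1.21-fold, and FOXP1 stood at 102 ± 7.28 CPM in RA+CB and 86.4 ± 12.8 CPM in RA-only cells (edgeR adjusted p = 0.0637). Of 16 genes of mature lung epithelium only 4 were tested, 2 of which rose and 2 fell. SFTPB and SFTPC, surfactant proteins of alveolar cells, had no counts in any of the 6 libraries, which allows up to 0.0786 CPM in RA+CB and 0.121 CPM in RA-only cells. FOXJ1, a ciliogenesis factor, stood at 24.7 ± 2.57 CPM in RA+CB and 11.4 ± 1.46 CPM in RA-only cells, 2.21-fold higher. It averaged 279 CPM at day 6 after RA. ABCA3, a lipid transporter of alveolar cells, fell 3.52-fold.

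SOX2 and other dorsal foregut genes were higher too. Of 11 listed genes 8 were tested, 4 rose, 3 fell and 1 was not called (median log2 1.34). SOX2 stood at 155, 146 and 158 CPM in RA+CB libraries, against 26.6, 13.5 and 4.56 CPM in RA-only libraries. The RA-only libraries were spread over a wide range and stayed below all RA+CB libraries. The rise was 10.9-fold (log2 3.45 ± 0.39 SE, edgeR adjusted p = 4.21e-06) and its log2 value was 4.07 without RA-only replicate 1. SOX2 lies at chr3:181711925-181714436 within the lncRNA SOX2-OT, which was at 1.36 CPM in RA+CB and 0.248 CPM in RA-only cells.

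TP63, a regulator of basal and oesophageal epithelium, stood at 10.7, 11.6 and 12.5 CPM in RA+CB libraries against 3.53, 1.15 and 0.556 CPM in RA-only libraries (7.35-fold, edgeR adjusted p = 1.03e-07; log2 2.88, and 3.72 without RA-only replicate 1). SOX21, a SOX factor of the foregut, and the squamous keratin KRT4 rose 14-fold and 17-fold. They averaged 51.8 and 20.7 CPM in RA+CB and 3.61 and 1.13 CPM in RA-only cells. At day 6 after RA they were higher than in both, with 64.1 and 108 CPM. SOX2 and TP63 averaged 33.8 and 0.857 CPM at day 6 after RA, below RA+CB cells. KRT15, KLF5 and the BMP antagonist NOG fell 4.83-fold, 2.37-fold and 2.18-fold. KRT5, the basal cell keratin, had no counts in the 6 libraries.

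Hedgehog ligands and targets moved with SOX2 and NKX2-1. SHH, the ligand made by the foregut epithelium and read by the surrounding mesenchyme, stood at 489, 500 and 558 CPM in RA+CB libraries, against 50.5, 24.1 and 26.8 CPM in RA-only libraries. That was a 15.7-fold rise (log2 3.97 ± 0.51 SE, edgeR adjusted p = 1.69e-05). Of 14 listed pathway genes 13 were tested, 9 rose and 4 fell (median log2 0.50). PTCH1, the receptor and a direct target, stood at 351 ± 13.6 CPM in RA+CB and 100 ± 27.1 CPM in RA-only cells, 3.54-fold higher. GLI1, a target and effector, rose 4.86-fold (23.7 ± 3.01 CPM in RA+CB, 5.01 ± 1.94 CPM in RA only), GLI3 6-fold and the ligand IHH 2.45-fold. GLI2, the co-receptor BOC and HHIP, a target that binds the ligand, fell 2.83-fold, 2.25-fold and 2.12-fold.

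NTN1, which encodes the secreted guidance factor netrin-1, was among the 12 largest rises, ranked as for NKX2-1. It stood at 88.8, 81.5 and 95.5 CPM in RA+CB libraries against 1.6, 2.19 and 1.44 CPM in RA-only libraries (49.7-fold, edgeR adjusted p = 1.56e-08). At day 6 after RA it averaged 24.8 CPM. FREM1, a basement membrane protein, stood at 358, 307 and 380 CPM in RA+CB libraries against 12.8, 21.4 and 12.1 CPM in RA-only libraries (22.2-fold, edgeR adjusted p = 2.89e-08). Others of the 12 were SLC1A2, a glutamate transporter, with 16 CPM in RA+CB and 0.353 CPM in RA only on average, and SHISA6 with 19.8 CPM in RA+CB and 0.874 CPM in RA only. The log2 fold changes of these last 2 were 5.58 and 4.47, and 4.95 and 5.45 without RA-only replicate 3.

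Liver and pancreas genes were lower. Of 20 listed genes 18 were tested, 2 rose, 12 fell and 4 were not called (median log2 -1.29), and their summed level was 265, 305 and 291 CPM in RA+CB libraries against 1030, 1561 and 1902 CPM in RA-only libraries. HHEX, an early regulator of liver and ventral pancreas, stood at 14.3, 18.4 and 16.4 CPM in RA+CB libraries against 197, 277 and 260 CPM in RA-only libraries (15.2-fold lower, edgeR adjusted p = 3.54e-08). PDX1, of pancreas and duodenum, stood at 0.526, 1.31 and 1.93 CPM in RA+CB libraries against 20.9, 29 and 58.8 CPM in RA-only libraries, 34.5-fold lower (log2 -5.11 ± 0.58 SE, edgeR adjusted p = 7.39e-05; -4.52 without RA+CB replicate 1, -4.55 without RA-only replicate 3). No RA+CB library reached the lowest RA-only library for either gene.

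HNF4A, a hepatocyte regulator, and PROX1, which acts in liver budding, fell 5.14-fold and 7.85-fold. ONECUT2, a factor of liver and pancreas, averaged 6.93 ± 2.91 CPM in RA+CB and 499 ± 333 CPM in RA-only cells, where it ranged from 195 to 855 CPM. SPINK1, a trypsin inhibitor, fell 53.1-fold (1.66 ± 0.139 CPM in RA+CB, 87.7 ± 24.8 CPM in RA only). MNX1, a homeobox gene of the early pancreas, rose 17.1-fold (5.45 ± 1.33 CPM in RA+CB, 0.292 ± 0.341 CPM in RA only). AFP, the fetal liver plasma protein, stood at 29.2 ± 2.28 CPM in RA+CB and 12.3 ± 3.02 CPM in RA-only cells (edgeR adjusted p = 0.0411), a call that was lost on leaving out any 1 of the 6 libraries (log2 1.24, and 1.07 to 1.46 without 1 library) and with DESeq2 (adjusted p = 0.22).

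Of 9 mid and hindgut genes 4 were tested, 1 rose and 3 fell. CDX2, a regulator of the intestine, stood at 2.73, 4.42 and 2.89 CPM in RA+CB libraries against 19.9, 30.3 and 59.3 CPM in RA-only libraries (11.2-fold lower, edgeR adjusted p = 3.8e-06). VIL1, the brush border protein villin, fell 5.74-fold.

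General endoderm and epithelial genes, which check the endoderm but not the foregut part of the label, were expressed in both groups. Of 16 tested, 3 rose, 12 fell and 1 was not called (median log2 -0.89). FOXA1 stood at 224 ± 5.5 CPM in RA+CB and 260 ± 15.5 CPM in RA-only cells, 1.16-fold lower (log2 -0.22). That call was lost without RA-only replicate 3 (log2 -0.17) and with upper quartile factors (log2 -0.13). FOXA2 rose 1.66-fold (171 ± 3.13 CPM in RA+CB, 104 ± 12.8 CPM in RA only) and SOX17, an early endoderm factor, rose 6.1-fold. At day 6 after RA, FOXA2 averaged 235 CPM and SOX17 21.5 CPM, above both day 9 groups. EPCAM, a surface protein of epithelia, stood at 362 ± 9.23 CPM in RA+CB and 413 ± 17.9 CPM in RA-only cells, and CDH1, E-cadherin, at 534 ± 24.5 CPM in RA+CB and 602 ± 77.1 CPM in RA-only cells (edgeR adjusted p = 0.237). GATA6 fell 2.86-fold and the simple epithelial keratins KRT18 and KRT8 fell 3.56-fold and 2.22-fold. GATA4 stood at 32.4 ± 2.99 CPM in RA+CB and 61.7 ± 23.9 CPM in RA-only cells, a call that was lost without RA-only replicate 3 (log2 -0.96, and -0.62 without it).

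Anterior and pharyngeal genes fell more often than they rose. Of 17 listed genes 14 were tested, 3 rose, 8 fell and 3 were not called (median log2 -1.67). PAX9, of the pharyngeal pouches, fell 17.6-fold and OTX2, an anterior regulator, 2.84-fold, while PAX1, also of the pouches, rose 2.39-fold. FOXE1, a thyroid and pharyngeal factor, stood at 27.1, 31.1 and 36.2 CPM in RA+CB libraries and at 40.7, 12.5 and 3.67 CPM in RA-only libraries (edgeR adjusted p = 0.213), and was called higher without RA-only replicate 1 (log2 1.91, edgeR adjusted p = 0.00407). PAX8, a partner of NKX2-1 and FOXE1 in the thyroid, had 1 count in the RA+CB libraries and none in the RA-only libraries.

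Cardiac muscle genes had the lowest median of the 29 lists. All 21 listed genes were tested, 20 fell, none rose and 1 was not called, and all 20 falls were at least 2-fold, with a median log2 fold change of -6.37. Their summed level was 50.3, 49.3 and 46.9 CPM in RA+CB libraries against 5288, 4390 and 6096 CPM in RA-only libraries. MYH6, the alpha cardiac myosin heavy chain, stood at 1.34, 0.301 and 0 CPM in RA+CB libraries against 905, 566 and 699 CPM in RA-only libraries. That was an 892-fold fall (log2 -9.80 ± 0.39 SE, edgeR adjusted p = 3.66e-11), with a log2 value of -11.92 without RA+CB replicate 1, which held most of the few remaining counts. MYH6 lies at chr14:23381987-23408273 beside its near-identical paralog MYH7 at chr14:23412740-23435660, so reads could be shared between them, and MYH7 fell 155-fold.

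MYBPC3, a sarcomere protein of the heart, had no counts in RA+CB libraries and stood at 53.6, 33.5 and 50.2 CPM in RA-only libraries, at least 567-fold lower with 3 counts over the RA+CB group as the floor. ACTC1, cardiac actin, stood at 19.5, 13.0 and 14.6 CPM in RA+CB libraries against 2423, 2201 and 3162 CPM in RA-only libraries (160-fold lower, edgeR adjusted p = 2.43e-09). Regulators fell with the structural genes, NKX2-5 by 83.4-fold (0.15 ± 0.219 CPM in RA+CB, 12.5 ± 7.38 CPM in RA only) and TBX20 by 82.9-fold. NPPB, a natriuretic peptide, averaged 6.45 ± 1.08 CPM in RA+CB and 390 ± 67.5 CPM in RA-only cells. TNNI3, a troponin of mature heart muscle, stood at 3.4 ± 0.292 CPM in RA+CB and 3.11 ± 0.803 CPM in RA-only cells and was the 1 gene not called (edgeR adjusted p = 0.635). At day 6 after RA, before CHIR99021 and BMP4 were given, MYH6 stood at 0.738 ± 0.607 CPM.

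Smooth muscle genes were also lower, 9 of 9 by the test, with a median log2 fold change of -5.32. Their summed level was 88.9, 99.2 and 81.3 CPM in RA+CB libraries against 3236, 3287 and 4310 CPM in RA-only libraries. MYOCD, the coactivator of smooth and cardiac muscle genes, stood at 1.1, 0.904 and 0.827 CPM in RA+CB libraries against 177, 173 and 206 CPM in RA-only libraries (185-fold lower, edgeR adjusted p = 1.09e-19). ACTA2, smooth muscle actin, fell 40-fold and TAGLN, an actin-binding protein, 37.6-fold.

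**Figure D3:**
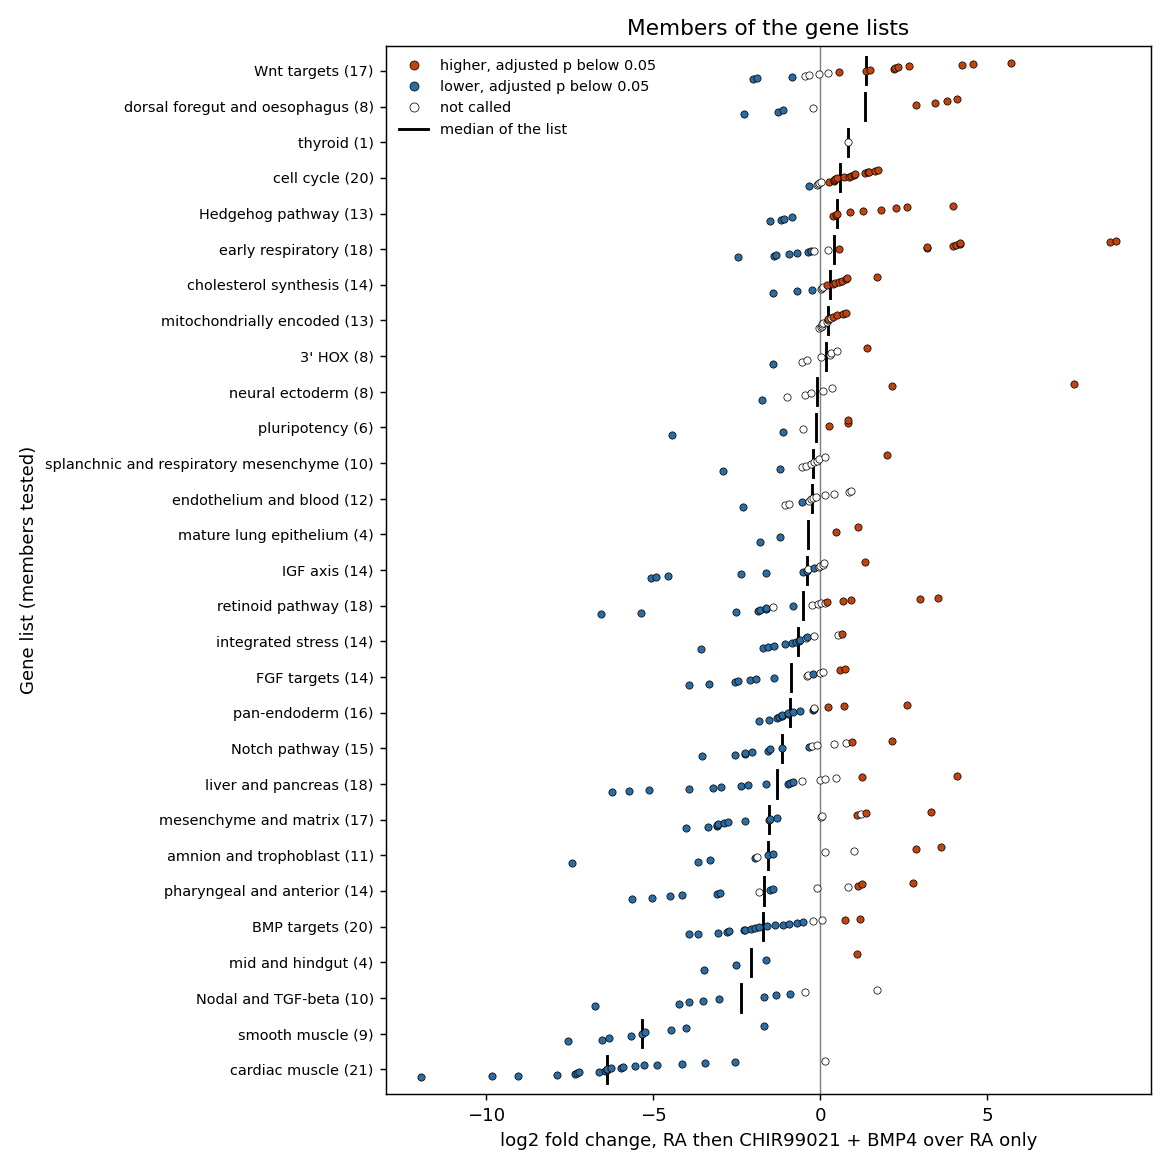
Log2 fold change of RA+CB over RA only for each tested gene of 29 lists, ordered by list median, with orange for called higher, blue for called lower, white for not called and a black bar for the median. Medians run from 1.37 for Wnt targets to -6.37 for cardiac muscle, where 20 of 21 genes lie left of 0 as called falls.

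Mesenchyme and matrix genes fell in most cases. Of 17 tested, 3 rose, 11 fell and 3 were not called (median log2 -1.54). FN1, the matrix protein fibronectin, stood at 3820, 3636 and 3522 CPM in RA+CB libraries against 25905, 35872 and 31926 CPM in RA-only libraries (8.53-fold lower, edgeR adjusted p = 1.51e-13). COL1A1 and COL3A1, fibrillar collagens, fell 16.1-fold and 8.26-fold, and VIM, an intermediate filament protein of mesenchyme, 6.72-fold. DCN, decorin, rose 9.96-fold (6.46 ± 0.571 CPM in RA+CB, 0.61 ± 0.251 CPM in RA only) and PDGFRA, a receptor of mesenchymal progenitors, 2.58-fold.

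The mesenchyme that surrounds the lung bud was little represented. Of 16 listed genes of splanchnic and respiratory mesenchyme 10 were tested, 1 rose, 2 fell and 7 were not called (median log2 -0.23). FGF10, the growth factor that draws out the bud, fell 7.44-fold (1.51 ± 0.767 CPM in RA+CB, 11.8 ± 1.61 CPM in RA only), and OSR1, a regulator of foregut mesoderm, rose 3.97-fold. OSR1 averaged 6.54 CPM in RA+CB and 1.75 CPM in RA-only cells, against 42 CPM at day 6 after RA. FOXF1, a target of Hedgehog in gut mesenchyme, had 6, 3 and 0 counts in RA+CB libraries and 0, 2 and 2 in RA-only libraries, too few to test. TBX4, a lung mesenchyme factor, had no counts in RA+CB libraries and 1 in RA-only libraries.

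Components of the retinoid pathway moved in both directions 3 days after RA was withdrawn. All 18 listed genes were tested, 5 rose, 8 fell and 5 were not called (median log2 -0.52). STRA6, the cell surface receptor through which retinol is taken up, stood at 45.2, 39.4 and 52.6 CPM in RA+CB libraries against 6.26, 2.61 and 3.56 CPM in RA-only libraries (11.6-fold, edgeR adjusted p = 3.46e-14). CRABP1 and CRABP2, cytoplasmic RA-binding proteins, rose 7.86-fold and 1.91-fold, and DHRS3, an RA-induced enzyme that lowers retinal, 1.59-fold. RXRG, a retinoid X receptor, had 3 counts over the RA+CB libraries against 199 over the RA-only libraries, a ratio of 102 in the fall (95% counting interval 34.4 to 498). All 3 counts were in RA+CB replicate 1, and the fitted log2 fold change of -6.55 was -9.41 without that library. CYP26A1, which breaks down RA, stood at 0.711 ± 0.343 CPM in RA+CB and 2.43 ± 1.01 CPM in RA-only cells, both far below the 321 CPM at day 6 after RA. Both were also far below the day 9 cells given no RA, at 122 CPM with CHIR99021 and BMP4 and 125 CPM untreated. Its call (edgeR adjusted p = 0.0196, log2 -1.79) was lost without RA+CB replicate 1 (-1.40), RA-only replicate 1 (-1.54) or RA-only replicate 3 (-1.70).

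The 3' HOX genes, direct RA targets that give anterior-posterior position, were mostly not called. Of 15 listed genes 8 were tested, 1 rose, 1 fell and 6 were not called (median log2 0.17). HOXB1 stood at 0.0956, 0.402 and 0.276 CPM in RA+CB libraries and at 0.481, 0.209 and 0.222 CPM in RA-only libraries (edgeR adjusted p = 0.706), against 140 CPM at day 6 after RA. HOXC4 rose 2.63-fold and HOXB2 fell 2.66-fold.

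IGF2, a fetal growth factor made by endoderm and mesoderm, was among the strongest falls at a high level. It stood at 35.9, 30.7 and 44.1 CPM in RA+CB libraries, against 1201, 1125 and 1322 CPM in RA-only libraries and 3119 CPM on average at day 6 after RA. The fall was 33.2-fold (log2 -5.05 ± 0.25 SE, edgeR adjusted p = 2.5e-10), and no RA+CB library came near the lowest RA-only one. IGF2 lies at chr11:2129117-2149566, where IGF2-AS, a partly antisense transcript, was at 0.585 CPM in RA+CB and 13.6 CPM in RA-only cells. Of 15 listed genes of the IGF axis 14 were tested, 1 rose, 8 fell and 5 were not called (median log2 -0.38). H19, the imprinted neighbour of IGF2, had 1 count over the RA+CB libraries against 28 over the RA-only libraries, a ratio of 43 in the fall (95% counting interval 7.11 to 1759). The binding proteins IGFBP3 and IGFBP5 fell 23.4-fold and 5.18-fold. IGF1R, the receptor that carries the IGF2 signal, fell 1.43-fold, and IGF1 rose 2.52-fold (3.29 ± 0.629 CPM in RA+CB, 1.29 ± 0.781 CPM in RA only).

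**Figure D4:**
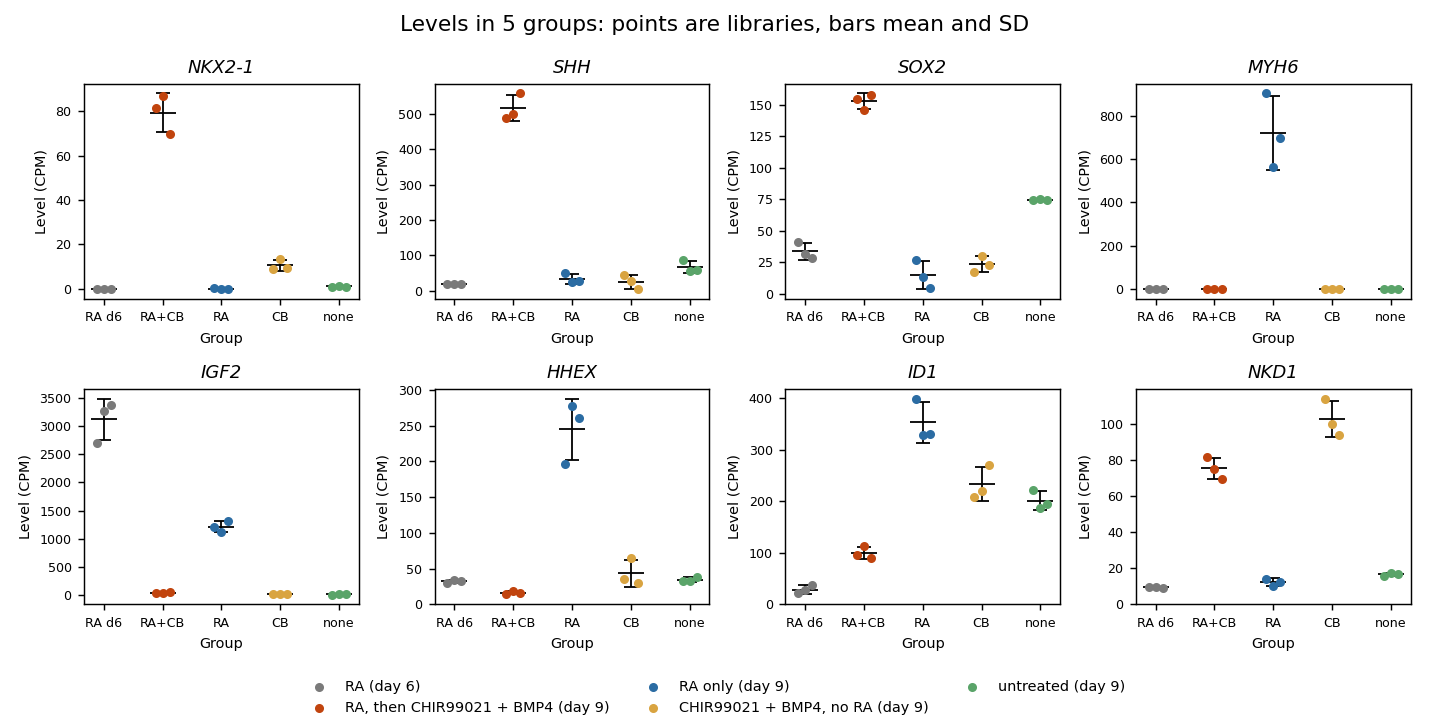
Levels (CPM, linear axes from 0, scaled to each gene) of 8 genes in 5 groups, with points for libraries and bars for mean and SD, from RA at day 6 through RA+CB and RA only at day 9 to CHIR99021 and BMP4 without RA (CB) and untreated cells. NKX2-1, SHH and SOX2 stand highest in RA+CB, MYH6, HHEX and ID1 in RA only, IGF2 in RA at day 6 (3119 CPM on average), and NKD1 in CB.

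Other signalling pathways read by foregut cells were mostly lower. Of 16 listed Notch genes 15 were tested, 2 rose, 9 fell and 4 were not called (median log2 -1.15). JAG1, a Notch ligand, stood at 62.9, 65.1 and 61.1 CPM in RA+CB libraries against 385, 787 and 1015 CPM in RA-only libraries (11.6-fold lower, edgeR adjusted p = 1.62e-07), and the target HES1 fell 2.82-fold. The ligand DLL1 rose 4.4-fold. Of 14 FGF targets, all tested, 2 rose, 8 fell and 4 were not called (median log2 -0.88). DUSP6, which dephosphorylates ERK, fell 3.76-fold, SPRY4, a feedback inhibitor, 5.85-fold and EGR1, an immediate early gene, 15.3-fold.

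Nodal and TGF-beta genes were mostly lower too, with 8 of 10 tested lower, none higher and 2 not called (median log2 -2.35). The ligand TGFB1 stood at 10.5, 10.6 and 12.3 CPM in RA+CB libraries against 96.3, 85.8 and 88.1 CPM in RA-only libraries (8.16-fold lower, edgeR adjusted p = 2.52e-16). INHBA, a subunit of activin, fell 18.8-fold and the Nodal antagonist CER1 11.4-fold.

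Cell cycle genes were mostly higher. Of 20 tested, 15 rose, 1 fell and 4 were not called, with a median log2 fold change of 0.61. At least 2-fold rises numbered 7, where 10.2% of all tested genes rose as much. The helicase subunit MCM2 stood at 331, 323 and 325 CPM in RA+CB libraries against 109, 93.6 and 92.6 CPM in RA-only libraries (3.33-fold, edgeR adjusted p = 7.03e-14), and MCM3 to MCM7 rose 1.88-fold to 2.73-fold. E2F1, which drives entry to S phase, rose 3.09-fold. Folds of genes used in mitosis were smaller, with MKI67 1.41-fold and TOP2A 1.35-fold higher, BUB1 1.25-fold lower, and PLK1 at 75.7 ± 5.12 CPM in RA+CB and 80.4 ± 11.5 CPM in RA-only cells (edgeR adjusted p = 0.416).

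Of 14 genes of the integrated stress and unfolded protein responses, 1 rose, 10 fell and 3 were not called (median log2 -0.67), with ATF3, a stress-induced factor, 11.8-fold lower and the chaperone HSPA5 2.06-fold lower. Of 14 cholesterol synthesis genes 8 rose, 3 fell and 3 were not called (median log2 0.29). Of 13 mitochondrially encoded genes 5 rose, none fell and 8 were not called (median log2 0.24), beside the higher mitochondrial share of RA+CB libraries given above.

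Markers of further cell types changed less evenly. Of 17 endothelial and blood genes 12 were tested, none rose, 2 fell and 10 were not called (median log2 -0.24); KDR, a VEGF receptor, stood at 28.1 ± 4.02 CPM in RA+CB and 35.7 ± 1.49 CPM in RA-only cells (edgeR adjusted p = 0.635). Of 14 amnion and trophoblast genes 11 were tested, 2 rose, 6 fell and 3 were not called (median log2 -1.57). CGA, the shared subunit of glycoprotein hormones, fell 170-fold (0.284 ± 0.113 CPM in RA+CB, 46.3 ± 12.7 CPM in RA only) and KRT7, a keratin of simple epithelia, 9.84-fold, while TFAP2C, a trophoblast and surface ectoderm factor, rose 12.3-fold. Of 13 neural genes 8 were tested, 2 rose, 1 fell and 5 were not called (median log2 -0.09). POU3F2, a neural POU factor, stood at 2.49, 2.01 and 2.07 CPM in RA+CB libraries and had no counts in RA-only libraries, at least 18.9-fold higher. Of 9 pluripotency genes 6 were tested, 3 rose, 2 fell and 1 was not called, and POU5F1 had no counts in RA+CB libraries and 6 over the RA-only libraries.

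The response to CHIR99021 and BMP4 was set against the same response without RA, CHIR99021 and BMP4 over untreated cells at day 9. The test of the difference itself called 8300 of 15531 genes (53.4%), 3966 with a higher response after RA (25.5%) and 4334 with a lower one (27.9%). With limma on log2(TPM + 1) the split was 2469 higher and 5922 lower. In untreated day 9 libraries, 31 pseudogenes at least 10-fold higher in treated libraries took 0.319% to 0.566% of the counts of 60 pseudogenes that separate treated from untreated libraries, against 93.8% to 95.5% in the 6 libraries compared above. The 60 were chosen for separating every treated library from untreated day 9 libraries and untreated day 6 replicate 2, so these shares follow from the choice. Untreated day 6 replicates 1 and 3, left out of the choice, stood at 9.08% and 17.8%. None of the 60 was 10-fold apart between RA+CB and RA only. Without RA the comparison crosses that divide, so the difference of responses cannot be told apart from it.

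NKX2-1 responded in both settings, with a log2 fold change of 8.84 after RA and 3.23 without it, a difference of 5.61 ± 0.54 (SE, edgeR adjusted p = 1.06e-08). For NKX2-1 this SE may be too small, because the RA-only libraries held few of its counts. SHH responded in opposite directions, 3.97 after RA and -1.49 without it (difference 5.46 ± 0.72, edgeR adjusted p = 3.04e-05), with 25.4 ± 19.6 CPM with CHIR99021 and BMP4 and 67.2 ± 17.7 CPM in untreated cells. SOX2 did likewise, 3.45 after RA and -1.69 without it (difference 5.13 ± 0.53, edgeR adjusted p = 3.09e-06). For NKD1 and LEF1 no difference was detected. NKD1 rose by 2.65 on the log2 scale in both settings (difference -0.00073 ± 0.26, edgeR adjusted p = 1), and LEF1 by 2.25 after RA and 2.27 without it (difference -0.01 ± 0.34, edgeR adjusted p = 0.978). AXIN2 rose by 2.33 after RA and by 1.72 without it (difference 0.60 ± 0.15, edgeR adjusted p = 0.00184).

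ZNRF3 rose by 2.22 on the log2 scale after RA and stood at -0.05 without it (edgeR adjusted p = 0.698), and the test of the difference gave 2.27 ± 0.13 (edgeR adjusted p = 2.01e-12). BMP targets differed as well. ID1 fell by 1.83 on the log2 scale after RA and stood at 0.21 without it (edgeR adjusted p = 0.411), a difference of -2.04 ± 0.28 (edgeR adjusted p = 2.56e-05). MSX1 rose by 3.81 on the log2 scale without RA and stood at -0.23 after RA, a difference of -4.04 ± 0.45 (edgeR adjusted p = 1.11e-07). For MYH6 the response without RA was between levels near the floor, 0.689 ± 0.191 CPM with CHIR99021 and BMP4 and 0.197 ± 0.275 CPM in untreated cells.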

How the data were processed

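RNA was extracted with a Nucleospin kit and made into TruSeq stranded mRNA libraries, per the labels' protocols. The authors deposited raw read counts for 35025 genes in 18 libraries, and the matching TPM values (transcripts per 1000000) as a second table. STAR 2.7.9 and the build GRCh38 are named in the submitters' processing notes. Neither the counting tool nor its annotation or strand setting is given there. Rows without a symbol (36, 0.00102% of counts) were left out.

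The count model was edgeR 4.0.16 under R 4.3.3: filterByExpr (minimum count 10), trimmed mean of M-values factors, and 1 robust quasi-likelihood fit of all 18 libraries with 1 mean per group and no block. Fold changes are fitted values of RA+CB over RA only, and the difference of responses subtracts CHIR99021 and BMP4 over untreated from it. Where a group had no counts the fold is a bound against 3 counts over the group, and with 1 to 3 counts a ratio with an exact interval, both covering counting error only. Depth ran from 5792337 to 25371661 counts, and the median biological coefficient of variation was 8.91%. Same-numbered RA+CB and RA-only libraries deviated together only weakly (correlations 0.024, 0.046 and 0.039), against -0.034 to -0.0082 for differently numbered ones.

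On simulated counts for RA+CB against RA only (15531 genes), 1.5-fold, 2-fold and 4-fold changes of 67, 67 and 66 genes were recovered at 61.2%, 80.6% and 92.4%, with 8.24% false calls. That share of false calls is above the level the adjusted p threshold aims at. No other gene was changed, whereas 64.4% were called in the data. Levels were means of all 18 libraries, with 1 dispersion per gene for every group, although RA-only replicates differed more. These rates may therefore not carry over to the data.

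Genes and lists were chosen with earlier results of these data known. The rule for named genes took the 12 largest rises and falls of at least 5 CPM, 29 fixed genes, up to 4 members per list and 4 differences of responses in each direction. Rises, falls and differences were ranked among called genes whose libraries did not overlap, passing over clones, antisense RNAs, pseudogenes and LOC or LINC entries. Values of other list members are given for context, and SP5's promoter was chosen after its level was seen. Alternatives were RLE and upper quartile factors, no filter, DESeq2 1.42.0, limma 3.58.1 on log2 of the deposited TPM plus 1, a replicate block, the compared libraries alone, and leaving out each library. Promoter sequences are RefSeq's (GRCh38.p14). A few list members are not reported here.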

Additional observations from a re-analysis of the deposited data

Results flagged for a closer look

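The 10 genes below responded differently to CHIR99021 and BMP4 after RA than without RA by edgeR's test of the difference itself. The differences of the log2 responses were 7.69 for NTN1, 5.61 for NKX2-1, 5.46 for SHH, 5.39 for DLEU7 and 5.13 for SOX2, all with the higher response after RA. They were -11.98 for MYH6, -10.71 for ARG1, -9.65 for TRBC2, -9.25 for NTRK2 and -5.93 for IGF2, all with the lower response after RA. Untreated day 9 cells averaged only 0.197 CPM for MYH6, 0.235 CPM for TRBC2 and 0.348 CPM for NTRK2. DLEU7 had 11 counts over the RA-only libraries. The sizes of these 4 differences therefore rest on few counts in at least 1 group. NTN1 averaged 88.6 CPM in RA+CB, 1.75 CPM in RA only, 1.51 CPM with CHIR99021 and BMP4 without RA, and 5.14 CPM in untreated cells. ARG1, arginase 1, averaged 0.0619 CPM in RA+CB and 20.9 CPM in RA only, and without RA its levels were 0.0482 CPM with CHIR99021 and BMP4 and 0 in untreated cells, so its difference rests on groups at or under 3 counts and was not called without CHIR99021 and BMP4 replicate 1 (-8.36, edgeR adjusted p = 1). The pseudogene counts that separate treated from untreated day 9 libraries, given with the difference of responses, split the libraries in the same way for all 10, and the effects cannot be told apart.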

How the results depend on the processing

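Over the settings run, 132 of 140 called genes named by the rule kept direction and call. AFP, AGER, CYP26A1, FOXA1, GATA4, POU5F1, SLC34A2 and SOX3 lost the call in at least 1 setting, and genes that gained one included BMP4, FOXE1, PLVAP, SIX3 and SOX18. Of uncalled genes, HOXB1 (log2 -0.40) ranged from -0.93 to 0.29 over the fits without 1 library, reversed at 0.29 without RA+CB replicate 1. MSX2 (0.07) was -0.0015 with DESeq2 and ranged from -0.23 to 0.51 over the fits without 1 library, reversed without RA+CB replicate 2 (-0.080), RA-only replicate 2 (-0.043) or RA-only replicate 3 (-0.23). The cause was not tested.

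With limma on log2(TPM + 1), 1018 genes were at least 2-fold higher (1589 with edgeR) while 2469 had a higher response after RA (3966 with edgeR) and 5922 a lower one (4334 with edgeR). The cause was not tested. DESeq2 called 4574 higher and 5027 lower, and upper quartile factors 5739 and 4450, with the median of all genes at 0.10 (log2). Leaving out 1 library gave 4483 to 4810 higher and 4662 to 4932 lower, and for the difference of responses 3599 to 3937 and 4038 to 4304. No pairing is stated; a replicate block gave 5001 higher and 5031 lower, 1575 and 2094 at least 2-fold, and 3987 and 4339 for the difference of responses. Depth limits folds of genes with few counts in 1 group, such as MYH6 with 31 counts over the RA+CB libraries.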
